A study of Homo sapiens with 21 samples.

Results

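The 42 genes described here encode the transcription factor MYC, its partner MAX, the growth enzymes ODC1 and CAD, RNA polymerase I factors and nucleolar proteins that build ribosomes. They were chosen by symbol, and all 42 were found among the 16553 genes of the count table. All 42 also passed the filter on low counts, as did 15969 genes in all. They were followed in AU565, a breast cancer line of epithelial origin with an amplified ERBB2 gene, under exposure to trastuzumab, a therapeutic antibody that binds HER2, the product of that gene. All libraries were labelled WT, so the labels give no difference of genotype between groups, and all cells were kept in RPMI with serum.

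RNA was sequenced from 21 libraries in 7 groups of 3. Primed and treated aggregates were cells exposed as a monolayer to 20 µg/ml trastuzumab for 24 h, moved to a liquid overlay with matrigel for 96 h, and then given 50 µg/ml for 24 h. Treated aggregates had the 96 h of overlay culture and the 50 µg/ml dose only, and primed aggregates had the monolayer exposure and the 96 h only. Untreated aggregates had 96 h of overlay culture and no antibody. Primed monolayers had 20 µg/ml for 24 h and 96 h of further monolayer culture. Acutely exposed monolayers were taken at the end of the same 24 h exposure, and untreated monolayers had no antibody and no stated culture time. The 50 µg/ml dose thus came with 24 h of additional culture that untreated and primed aggregates did not have, and matrigel was present in aggregates only. The labels do not state whether the antibody was washed out after the first exposure, nor whether the replicates are separate cultures. A p-value here therefore reflects how far these particular libraries spread, which may be technical.

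MYC forms a dimer with MAX that binds short DNA motifs called E-boxes near the starts of growth genes. Its known targets include enzymes of polyamine and nucleotide synthesis and many factors of the nucleolus, where RNA polymerase I transcribes the ribosomal RNA precursor. That precursor is modified by small nucleolar ribonucleoproteins (snoRNPs), cut by the small subunit processome and by large subunit assembly factors, and exported as ribosomal subunits. In HER2-amplified breast cancer, receptor signalling through the PI3K and MAPK pathways is known to feed both MYC and ribosome production.

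Levels are read counts relative to library size (CPM, with TMM factors), given per library in the order of the replicate numbers or as mean ± SD with n = 3. A value in parentheses after a gene's symbol, and a gene's rise given as "by", is its log2 fold change. Changes are log2 fold changes of the first named group over the second, with their standard error (SE). A gene passed when its Benjamini-Hochberg adjusted p over all 15969 tested genes was under 0.05 in edgeR's quasi-likelihood test. CPM is a share of a library, so fewer cells of a type and less RNA per cell cannot be told apart, and the amount of ribosomal RNA in a cell was not measured. The 10 comparisons share groups, so results from comparisons with the same reference libraries are not independent of each other.

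Total counts ran between 15005070 and 26921113 per library. Epithelial and ERBB2 amplicon markers summed to 12360 to 19800 CPM in all 21 libraries. Of these 7 markers CDH1 was low in every group, with group medians of 0.128 to 2.18 CPM. Transcripts of other tissues split the libraries into a pair of sets. In the 9 libraries of primed and treated aggregates, treated aggregates and primed monolayers, 6 kidney markers summed to 6.33 to 41.9 CPM and 6 melanocyte markers to 1.64 to 4.20 CPM. In the other 12 libraries the kidney sum was 0.355 to 1.23 CPM and the melanocyte sum 16.2 to 107 CPM. That melanocyte sum differed between groups, with 16.2 to 22.2 CPM in untreated and 53.4 to 91.3 CPM in primed aggregates. It was 34.3 to 91.3 CPM in acutely exposed and 48.35 to 107 CPM in untreated monolayers, and its part in the results was not tested. The melanocyte enzyme TYR had 0 counts in all 9 libraries of the first set. The cardiac myosin MYH7 exceeded 1 CPM in 6 of the 12, which were left out of an alternative fit. That fit keeps 1 library each of acutely exposed monolayers, untreated monolayers and untreated aggregates, takes the spread from the other groups, and so shows nothing about MYH7. Comparisons within a set are untreated aggregates against untreated monolayers, acutely exposed against untreated monolayers, primed against untreated aggregates, primed and treated against treated aggregates, and primed and treated aggregates against primed monolayers. In the remaining comparisons the set cannot be told apart from the treatment. The loci of 10 of the 42 genes overlap another gene of the table that is not a small RNA, namely MAX, POLR1C, RRN3, MYBBP1A, NHP2, NOP14, BYSL, BOP1, GNL3 and EBNA1BP2, and RRN3 also has 3 pseudogenes in the table. WDR74 overlaps the small nuclear RNA gene RNU2-2, which is in the table as well. Mitochondrial ribosomal RNA took 2.13 to 2.36% of the counts in primed and treated aggregates, 1.52 to 1.71% in treated aggregates, 2.62 to 2.77% in primed aggregates and 2.50 to 2.75% in untreated aggregates. It took 0.793 to 0.812% in primed, 0.903 to 0.951% in acutely exposed and 0.925 to 1.14% in untreated monolayers, and its part in the results was not tested. The strand setting of the counting is not given in the sources used here, so reads of these genes and their neighbours may be mixed.

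The promoters of these genes were searched for the MYC and MAX E-box, CACGTG, which reads the same on both strands, and no other motif was searched. RefSeq promoter windows (GRCh38.p14, 250 bases before to 50 after a start) were at hand for 35 of the 42 genes. Of these, 17 (48.6%) held CACGTG in at least 1 window, against 1530 of 12556 genes of the count table (12.2%). The matches lay close to the start. Within 50 bases of a start, 16 of the 35 (45.7%) held one, against 5.11% of genes of the table, whereas in the 200 bases before the start the shares were 14.3% and 9.55%. The window of 50 bases was chosen after seeing the data. Since 11 of the 35 genes had more than 1 window, a gene was counted once if any window matched. A match is a description of the letters and not evidence of binding.

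The first pair of sequences below belongs to the genes with an E-box that were raised most in primed monolayers. They run from 100 bases before to 30 after the start, written 5′ to 3′, with the E-box in capitals. RRP9, a protein of the U3 snoRNP (chr3:51941875-51942004, minus strand), has its E-box beginning 5 bases before the start, and PES1, a large subunit assembly factor (chr22:30591881-30592010, minus strand, at a start inside the gene's span), has it at base 14 of the transcript.
RRP9: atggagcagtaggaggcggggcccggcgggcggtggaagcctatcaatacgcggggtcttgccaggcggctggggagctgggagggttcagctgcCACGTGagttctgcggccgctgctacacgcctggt
PES1: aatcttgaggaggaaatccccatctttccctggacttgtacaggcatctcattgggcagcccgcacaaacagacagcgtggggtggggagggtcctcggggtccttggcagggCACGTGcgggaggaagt
The others run from 50 bases before to 30 after the start and were picked after their values were seen, to show motif-bearing genes that behaved differently. ODC1 (chr2:10447983-10448062, minus strand), which has 2 E-boxes, and FBL (chr19:39846350-39846429, minus strand) were higher in primed than in untreated monolayers. UTP20 (chr12:101280055-101280134, plus strand), UTP4 (chr16:69132599-69132678, plus strand) and NOP10 (chr15:34343107-34343186, minus strand) carry the same motif near the start and did not pass in that comparison.
ODC1: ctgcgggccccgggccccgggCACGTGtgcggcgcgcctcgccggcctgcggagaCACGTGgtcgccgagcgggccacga
FBL: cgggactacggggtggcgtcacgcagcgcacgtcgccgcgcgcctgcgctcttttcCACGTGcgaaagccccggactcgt
UTP20: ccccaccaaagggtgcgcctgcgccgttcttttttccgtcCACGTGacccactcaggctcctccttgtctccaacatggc
UTP4: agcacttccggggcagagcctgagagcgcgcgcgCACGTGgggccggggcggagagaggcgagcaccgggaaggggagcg
NOP10: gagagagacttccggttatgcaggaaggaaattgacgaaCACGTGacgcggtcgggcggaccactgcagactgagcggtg
Genes with and without the motif rose. In primed against untreated monolayers, 11 of the 17 genes with an E-box rose and 0 fell, with a median log2 fold change of 0.24. Of the 18 with a promoter and no match, 14 rose and 2 fell, with a median of 0.53. Of all tested genes, with or without the motif, 33.7% were higher and 31.6% lower in that comparison. UBTF, CAD and NOP56, all without a match in their windows, had larger log2 fold changes there than any of the 17.

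MYC had its highest mean in untreated aggregates and its lowest in untreated monolayers, 2.73-fold apart. By group, MYC averaged 216 ± 4.61 CPM in primed and treated aggregates, 200.4 ± 11.6 CPM in treated aggregates, 233 ± 11.7 CPM in primed aggregates and 276 ± 14.5 CPM in untreated aggregates. In monolayers MYC averaged 257 ± 14.2 CPM after priming, 113 ± 1.74 CPM after acute exposure and 101 ± 5.16 CPM without antibody. Every aggregate library and every primed monolayer library thus lay above all 6 libraries of acutely exposed and untreated monolayers. In the order of the group means, untreated aggregates (262 to 291 CPM) overlapped with the next group, primed monolayers (243 to 272 CPM), and primed and treated aggregates (211 to 219.9 CPM) overlapped with treated aggregates (191 to 213 CPM). The other neighbours in that order did not overlap, although primed monolayers and primed aggregates both had a library at 243 CPM. Among all 42 genes, primed monolayers held the highest group mean for 23, untreated aggregates for 10, primed aggregates for 6 and untreated monolayers for 3. The lowest mean was in acutely exposed monolayers for 13, in treated aggregates for 10 and in untreated monolayers for 10. How often each group held the highest or lowest mean over all tested genes was not counted. These numbers therefore do not show a trait of the 42 genes. Together the 42 genes took 0.471 to 0.481% of the counts in primed and treated aggregates, 0.452 to 0.459% in treated aggregates, 0.495 to 0.502% in primed aggregates and 0.512 to 0.544% in untreated aggregates. They took 0.553 to 0.561% in primed monolayers, 0.427 to 0.428% in acutely exposed monolayers and 0.447 to 0.460% in untreated monolayers.

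**Figure D1:**
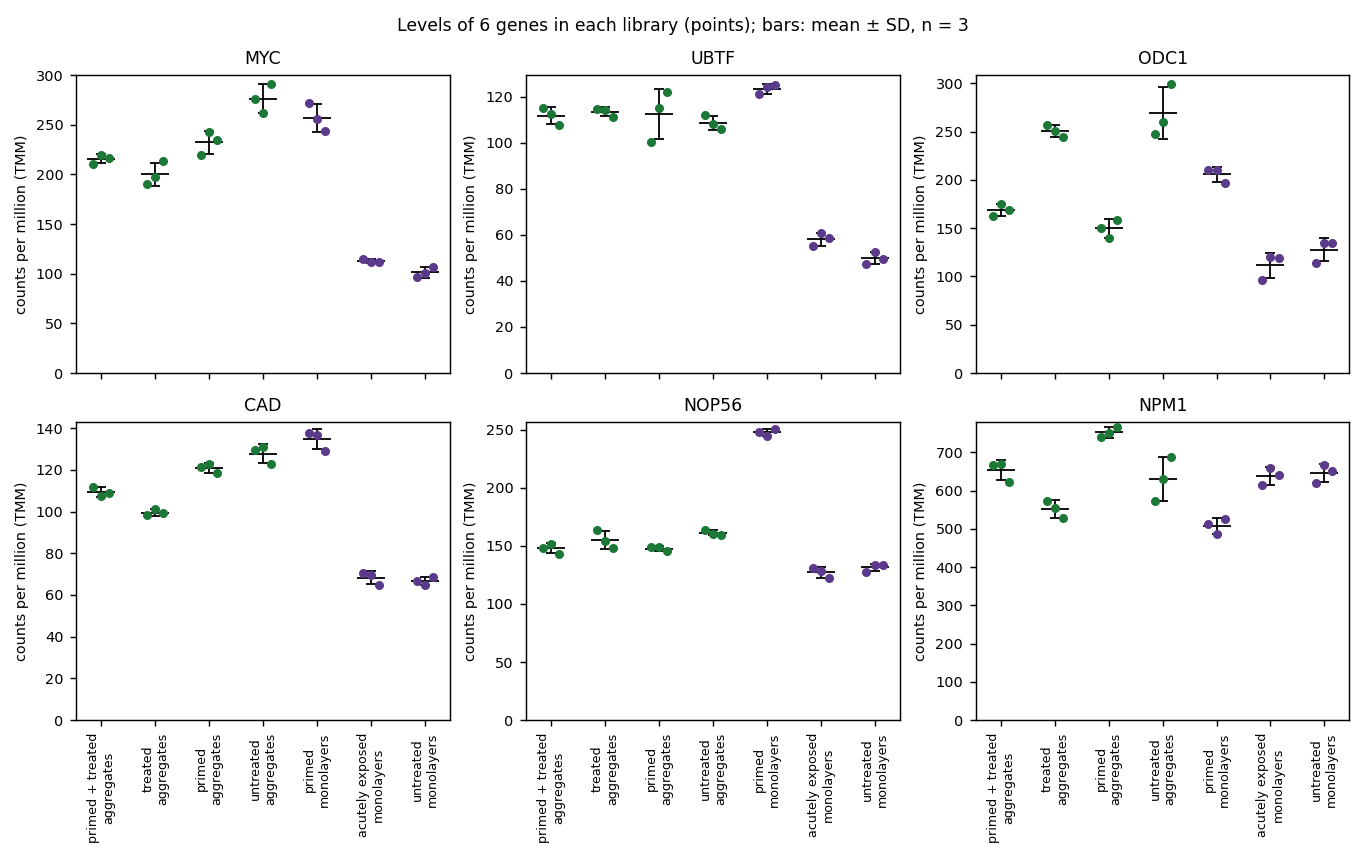
CPM (TMM scaled, linear axis from 0) of MYC, UBTF, ODC1, CAD, NOP56 and NPM1 in each of the 21 libraries (points), with the mean and SD of each group of 3 (bars). MYC, UBTF and CAD lie low in acutely exposed and untreated monolayers and high elsewhere, NOP56 is highest in primed monolayers, and NPM1 is highest in primed aggregates.

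Untreated aggregates were compared with untreated monolayers for the effect of the culture form, from which the matrigel and the culture time cannot be told apart. Of the 42, 25 were higher in aggregates and 5 lower, where 32.9% of all tested genes were higher and 31.1% lower (64.1% in either direction). The median log2 fold change of the 42 was 0.24, against 0.01 over all tested genes. MYC had 276, 262 and 291 CPM in untreated aggregates and 96.3, 101 and 107 CPM in untreated monolayers (log2 fold change 1.45, SE 0.056, edgeR adjusted p = 1.28e-21). Its partner MAX had 82.8, 77.6 and 80.9 CPM in aggregates and 56.4, 53.0 and 57.2 CPM in monolayers (log2 fold change 0.53, SE 0.056, edgeR adjusted p = 3.23e-10). For both genes the lowest aggregate library was above the highest monolayer library.

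The growth enzymes rose with MYC. ODC1, the rate-limiting enzyme of polyamine synthesis, had 248, 260.4 and 299 CPM in untreated aggregates and 114, 134 and 134 CPM in untreated monolayers (log2 fold change 1.07, SE 0.076, edgeR adjusted p = 1.88e-12). CAD, which opens pyrimidine synthesis, had 129, 131 and 123 CPM in aggregates and 66.9, 65.0 and 68.8 CPM in monolayers (log2 fold change 0.93, SE 0.051, edgeR adjusted p = 1.72e-17). In neither enzyme did the groups overlap.

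Of the 7 RNA polymerase I genes, 5 rose and 1 fell in untreated aggregates. UBTF, which binds and opens ribosomal DNA, had 112, 108 and 106 CPM in aggregates and 47.3, 52.6 and 49.7 CPM in monolayers (log2 fold change 1.12, SE 0.060, edgeR adjusted p = 1.31e-17). This was the largest change of the 7. The promoter-recruiting factor RRN3 (0.66), the shared polymerase I and III subunit POLR1C (0.67) and the polymerase-associated POLR1E (0.41) also rose, while the catalytic subunit POLR1A was lower (-0.13). The calls of POLR1A and of POLR1B, the other large subunit (0.14), rested on single libraries. POLR1A passed no longer without untreated aggregate replicate 1 or 2 or untreated monolayer replicate 3, with edgeR adjusted p up to 0.184. POLR1B passed no longer without replicate 2 or 3 of either group, with edgeR adjusted p up to 0.141.

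Among snoRNP proteins, FBL, the methyltransferase of the box C/D particles, had 159.6, 176 and 181 CPM in untreated aggregates and 112, 116 and 122 CPM in untreated monolayers (log2 fold change 0.56, SE 0.058, edgeR adjusted p = 1.9e-10). DKC1, the pseudouridine synthase of the box H/ACA particles, had 154, 149 and 152 CPM in aggregates and 90.9, 100.1 and 92.0 CPM in monolayers (log2 fold change 0.68, SE 0.053, edgeR adjusted p = 2.52e-13). Their partners had smaller values. The box C/D scaffold NOP56 rose by 0.30 while its paralogue NOP58 stood at 0.050 and did not pass, and of the H/ACA proteins GAR1 (0.23) and NOP10 (0.23) passed and NHP2 (0.051) did not. The call of GAR1 was lost without untreated aggregate replicate 3 (edgeR adjusted p = 0.169), and that of NOP10 without that library or untreated monolayer replicate 3 (edgeR adjusted p up to 0.333).

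Large subunit factors rose in 7 of 11 genes and fell in 1, and small subunit factors rose in 3 of 9 and fell in 2. GNL3 (nucleostemin), a nucleolar GTPase, had 311, 315 and 325 CPM in untreated aggregates and 182, 179 and 169 CPM in untreated monolayers (log2 fold change 0.84, SE 0.048, edgeR adjusted p = 7e-17). NOB1, the endonuclease that finishes the small subunit RNA, had 70.9, 71.2 and 70.0 CPM in aggregates and 41.9, 45.7 and 45.4 CPM in monolayers (log2 fold change 0.67, SE 0.067, edgeR adjusted p = 9.65e-11). UTP20, a processome scaffold, went the other way with 46.8, 50.0 and 55.0 CPM in aggregates and 81.8, 78.5 and 72.0 CPM in monolayers (log2 fold change -0.61, SE 0.064, edgeR adjusted p = 2.43e-10). None of these 3 genes had overlapping groups. The helicase DDX21 (-0.26), the processome protein UTP4 (-0.22) and the large subunit factor WDR12 (-0.20) were also lower. The abundant chaperone genes NCL (0.11) and NPM1 (-0.035) did not pass, and NOLC1 (0.15), a snoRNP chaperone, passed only with untreated aggregate replicate 3 in the fit (edgeR adjusted p = 0.0796 without it). UTP4 passed no longer without untreated aggregate replicate 1 or untreated monolayer replicate 3, with edgeR adjusted p up to 0.0737.

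Of 121 other genes of the MYC network, nucleotide and polyamine synthesis and ribosome assembly, 53 rose and 26 fell in untreated aggregates. The largest rise was of MXI1, which competes with MYC for MAX. MXI1 had 73.3, 76.4 and 78.2 CPM in untreated aggregates and 18.3, 19.2 and 20.8 CPM in untreated monolayers (log2 fold change 1.96, SE 0.068, edgeR adjusted p = 6.83e-23). The largest fall among genes that passed was of the helicase gene DDX52 (log2 fold change -0.83, SE 0.13, edgeR adjusted p = 1.56e-06). Against a change of 25% rather than none, 16 of the 42 passed. For the test against 25%, here and below, the share of all tested genes that passed was not taken.

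**Figure D2:**
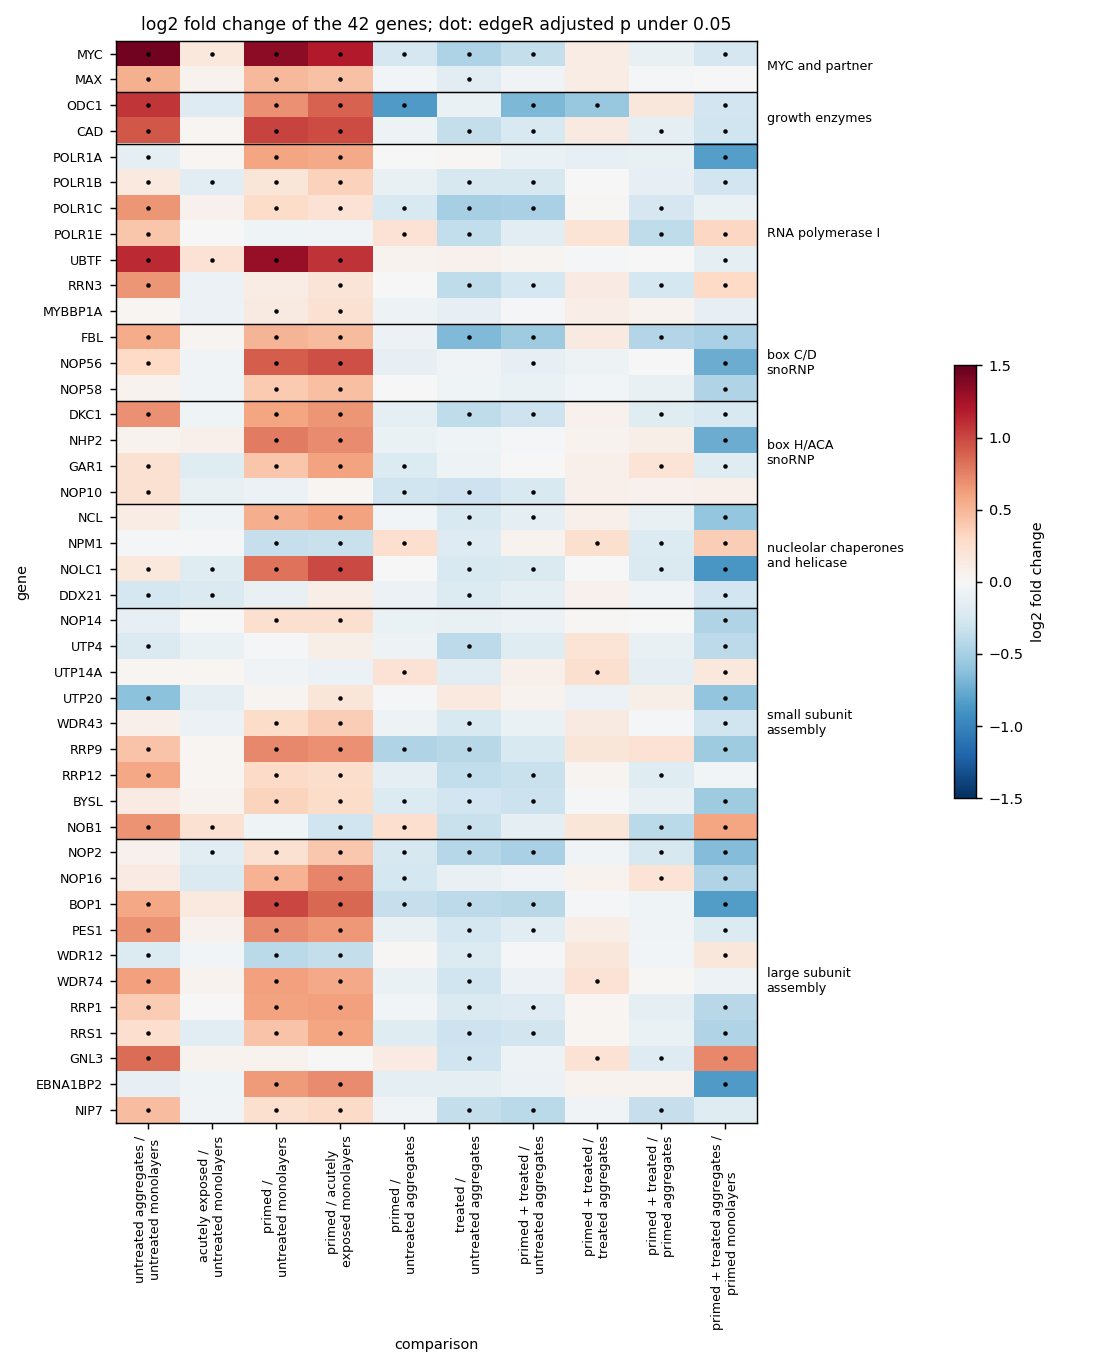
Log2 fold changes of the 42 genes (rows, grouped by role) in the 10 comparisons (columns, first named group over the second), with colour for the size and a dot where the edgeR adjusted p was under 0.05. MYC, ODC1, CAD and UBTF are red in the first column and in both primed monolayer columns, and the treated aggregate column holds no dot on a rise.

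Acutely exposed monolayers were compared with untreated monolayers. After 24 h at 20 µg/ml, 3 of the 42 (7.14%) were higher and 4 (9.52%) lower. Those shares were near the ones of all tested genes, of which 11.3% were higher and 8.91% lower (20.2% in either direction). With total counts in place of TMM factors, the split was 2 higher and 8 lower. That scaling moved the log2 values of all genes by about -0.0374, and the share of all tested genes under it was not taken. With TMM factors the median log2 fold change of the 42 was -0.03. MYC had 115, 112 and 112 CPM in acutely exposed monolayers and 96.3, 101 and 107 CPM in untreated monolayers (log2 fold change 0.16, SE 0.056, edgeR adjusted p = 0.0457). The groups did not overlap, but the call of MYC was lost without any acutely exposed library, or without untreated monolayer replicate 1 or 2, with edgeR adjusted p of 0.0864 to 0.208.

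UBTF had 55.1, 60.8 and 58.5 CPM in acutely exposed monolayers and 47.3, 52.6 and 49.7 CPM in untreated monolayers (log2 fold change 0.22, SE 0.061, edgeR adjusted p = 0.00883). DDX21, a nucleolar RNA helicase, had 388, 371 and 365 CPM in exposed monolayers and 442, 435 and 428 CPM in untreated ones (log2 fold change -0.22, SE 0.054, edgeR adjusted p = 0.00347). NOLC1 had 93.2, 92.7 and 92.5 CPM in exposed monolayers and 105, 104 and 106 CPM in untreated ones (log2 fold change -0.18, SE 0.052, edgeR adjusted p = 0.0119). DDX21 and NOLC1 were the calls of the 7 that held without each single library. NOB1 (0.23), NOP2, which methylates large subunit RNA (-0.17), and POLR1B (-0.17) made up the rest. UBTF was lost without acutely exposed replicate 2 or untreated replicate 1 (edgeR adjusted p up to 0.0634), and NOB1 without acutely exposed replicate 3 or untreated replicate 1 (edgeR adjusted p up to 0.0843). NOP2 was lost without acutely exposed replicate 2 or 3 or untreated replicate 1 or 3 (edgeR adjusted p up to 0.098), and POLR1B without replicate 1 or 2 of either group (edgeR adjusted p up to 0.201). Without untreated monolayer replicate 1 the count fell to 3 genes, and without acutely exposed replicate 2 or 3 to 4. Without the MYH7 libraries it was 1, in a comparison of 1 library with 1. Of the 121 other pathway genes, 8 rose and 20 fell, with the processome protein IMP3 (log2 fold change 0.49, SE 0.072, edgeR adjusted p = 2.89e-06) and the polyamine enzyme AMD1 (log2 fold change -0.46, SE 0.080, edgeR adjusted p = 0.000104) at the extremes. Against a change of 25% 0 of the 42 passed.

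Primed monolayers, taken 96 h after the same exposure, carried higher levels of most of the 42 genes. Against untreated monolayers 31 were higher and 2 lower, where 33.7% of all tested genes were higher and 31.6% lower (65.3% in either direction). Against acutely exposed monolayers 33 were higher and 3 lower, where the shares were 32.3% and 30.1% (62.4% in either direction). The medians of the 42 were 0.41 and 0.44 on the log2 scale. MYC had 272, 256 and 243 CPM in primed monolayers, 115, 112 and 112 CPM in acutely exposed ones and 96.3, 101 and 107 CPM in untreated ones. The lowest primed library was well above the highest library of the other monolayers. The change of MYC was 1.19 against acutely exposed monolayers (SE 0.055, edgeR adjusted p = 4.98e-19).

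UBTF had 121, 124 and 125 CPM in primed monolayers and 47.3, 52.6 and 49.7 CPM in untreated monolayers (log2 fold change 1.31, SE 0.060, edgeR adjusted p = 2.72e-19). CAD had 138, 137 and 129 CPM in primed and 66.9, 65.0 and 68.8 CPM in untreated monolayers (log2 fold change 1.01, SE 0.051, edgeR adjusted p = 2.88e-18). BOP1, the central protein of a large subunit complex with PES1 and WDR12, had 135, 129.6 and 113 CPM in primed and 62.6, 61.1 and 65.5 CPM in untreated monolayers (log2 fold change 1.0, SE 0.066, edgeR adjusted p = 3.43e-15). In each of these genes the groups lay apart. POLR1A, which had not passed upward in aggregates, rose in primed monolayers with 141, 142 and 134 CPM, against 90.1, 88.9 and 96.4 CPM in untreated monolayers (log2 fold change 0.60, SE 0.057, edgeR adjusted p = 3.56e-11). POLR1B (0.18) and POLR1C (0.28) rose as well, and POLR1E (-0.064) and RRN3 (0.11) did not pass.

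All 3 box C/D proteins rose. NOP56 had 248, 245 and 250.4 CPM in primed and 128, 133 and 133 CPM in untreated monolayers (log2 fold change 0.91, SE 0.048, edgeR adjusted p = 7.43e-18), with FBL at 0.51 and NOP58 at 0.40. Of the 4 box H/ACA proteins 3 rose. NHP2 had 219.9, 204 and 183 CPM in primed and 113, 122 and 119 CPM in untreated monolayers (log2 fold change 0.78, SE 0.062, edgeR adjusted p = 4.71e-13), DKC1 was at 0.60 and GAR1 at 0.42, and NOP10 at -0.083 did not pass.

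The nucleolar chaperones diverged. NCL (nucleolin) had 938, 898 and 937 CPM in primed and 626, 659.6 and 619 CPM in untreated monolayers (log2 fold change 0.54, SE 0.049, edgeR adjusted p = 8.13e-12). NOLC1 had 177, 186 and 189.6 CPM in primed and 105, 104 and 106 CPM in untreated monolayers (log2 fold change 0.81, SE 0.051, edgeR adjusted p = 1.35e-15). NPM1 (nucleophosmin), by contrast, had 512, 485 and 525 CPM in primed and 619, 667 and 652 CPM in untreated monolayers (log2 fold change -0.35, SE 0.055, edgeR adjusted p = 1.2e-06). All 3 primed libraries were thus above the untreated ones for NCL and NOLC1 and below them for NPM1. The reference names 50 pseudogenes of NPM1; whether reads shared with them were counted is not given in the sources used here.

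Of the large subunit factors 9 of 11 rose and 1 fell. PES1 rose by 0.71, EBNA1BP2 by 0.64, WDR74 by 0.61, RRP1 by 0.60, NOP16 by 0.52, RRS1 by 0.43 and NOP2 by 0.23, and GNL3 (0.054) did not pass. WDR12, the third protein of the complex with BOP1 and PES1, had 43.4, 40.2 and 37.9 CPM in primed and 53.3, 53.9 and 53.2 CPM in untreated monolayers (log2 fold change -0.40, SE 0.065, edgeR adjusted p = 1.63e-06). WDR12 was therefore lower while its partners were higher. Of the small subunit factors 5 of 9 rose and 0 fell, led by RRP9 with 34.0, 35.2 and 30.7 CPM in primed and 19.5, 18.8 and 22.1 CPM in untreated monolayers (log2 fold change 0.73, SE 0.095, edgeR adjusted p = 3.85e-08). BYSL (0.33), RRP12 (0.29), WDR43 (0.28) and NOP14 (0.24) rose too. UTP4, UTP14A, UTP20 and NOB1 lay between -0.070 and 0.036 and did not pass against untreated monolayers. Against acutely exposed monolayers NOB1 fell (log2 fold change -0.30, SE 0.069, edgeR adjusted p = 0.000363).

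These comparisons set libraries with kidney transcripts against libraries with melanocyte transcripts, so the set cannot be told apart from the 96 h after exposure. The endothelial markers CDH5, VWF and PECAM1 summed to 58.8 to 67.3 CPM in primed monolayers and 9.15 to 9.79 CPM in untreated monolayers, with CDH5 at 54.5 to 61.7 CPM and PECAM1 at most 0.480 CPM in primed monolayers, and their part in the result was not tested. MYBBP1A, a nucleolar co-regulator (0.14), passed no longer without primed replicate 1 or 2 or untreated replicate 1 or 2 (edgeR adjusted p up to 0.265), and NIP7, a large subunit factor (0.24), without primed replicate 1 or 3 or untreated replicate 3 (edgeR adjusted p up to 0.137). The other 31 of the 33 calls against untreated monolayers held without each single library. Of the 121 other pathway genes 62 rose and 30 fell against untreated monolayers. The largest changes there were of genes near 1 CPM, MYCN (1.48 CPM in primed and 0.489 CPM in untreated monolayers, log2 fold change 1.61) and PRPS2, a ribose phosphate enzyme (0.895 CPM in primed and 2.12 CPM in untreated monolayers, log2 fold change -1.24). Against acutely exposed monolayers 59 of the 121 rose and 24 fell, with MYCL at 1.91 and the large subunit factor RSL24D1 at -0.84.

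**Figure D3:**
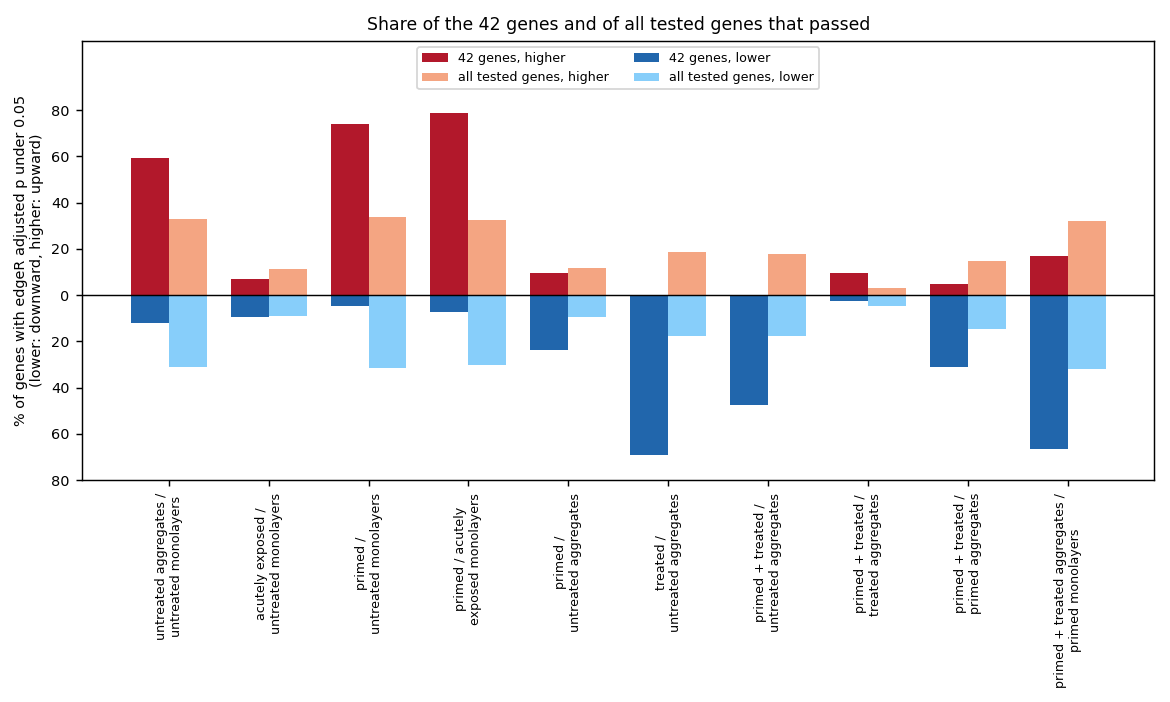
Percent of the 42 genes (dark bars) and of all 15969 tested genes (light bars) that were higher (upward) or lower (downward) with an edgeR adjusted p under 0.05 in each of the 10 comparisons. The dark bars reach highest for primed over acutely exposed monolayers (33 of 42) and lowest for treated over untreated aggregates (29 of 42).

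Primed aggregates, grown from exposed cells, differed from untreated aggregates in 14 of these genes. Of the 42 genes 4 were higher and 10 lower, where 11.5% of all tested genes were higher and 9.66% lower (21.2% in either direction), and the median log2 fold change was -0.09. ODC1 changed most, with 151, 139.7 and 159 CPM in primed aggregates and 248, 260.4 and 299 CPM in untreated aggregates (log2 fold change -0.85, SE 0.075, edgeR adjusted p = 9.21e-09). No primed library reached the lowest untreated one. CAD, the other growth enzyme, did not pass (-0.081), and its groups overlapped. MYC had 220.1, 243 and 234 CPM in primed and 276, 262 and 291 CPM in untreated aggregates (log2 fold change -0.25, SE 0.054, edgeR adjusted p = 0.00086), again without overlap.

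BOP1 had 74.8, 74.7 and 72.2 CPM in primed and 99.4, 95.9 and 86.9 CPM in untreated aggregates (log2 fold change -0.35, SE 0.066, edgeR adjusted p = 0.000184). RRP9 had 18.3, 19.6 and 21.4 CPM in primed and 25.2, 26.8 and 29.5 CPM in untreated aggregates (log2 fold change -0.45, SE 0.097, edgeR adjusted p = 0.000791). NPM1 went up, with 739, 751 and 767 CPM in primed and 573, 630.1 and 689 CPM in untreated aggregates (log2 fold change 0.25, SE 0.055, edgeR adjusted p = 0.00083). NOB1 also rose (0.25) and NOP2 fell (-0.24). These 7 calls, of ODC1, MYC, BOP1, RRP9, NPM1, NOB1 and NOP2, held without each single library, and the other 7 did not. The other 7 were POLR1C, POLR1E, GAR1, NOP10, UTP14A, BYSL and NOP16, whose edgeR adjusted p reached 0.085 to 0.446 with 1 library left out. All 7 were lost without primed replicate 3, and each without untreated replicates as well, which was replicate 2 for POLR1C, 3 for GAR1, NOP10 and NOP16, 1 or 2 for UTP14A, 2 or 3 for BYSL and any for POLR1E. BYSL and GAR1 were also lost without primed replicate 1 or 2, and POLR1E without primed replicate 2. The count was 7 without primed replicate 3 and 9 without untreated replicate 3. Without the MYH7 libraries, with 1 untreated aggregate library remaining, 0 genes were higher and 7 lower, so that none of the 4 rises, NPM1 and NOB1 included, passed. It was 8 in a fit of these 2 groups alone. Of the 121 other pathway genes 8 rose and 20 fell, the called extremes being MYCN, at 0.697 CPM in primed and 0.223 CPM in untreated aggregates (log2 fold change 1.61), and the CTP synthase CTPS1 (log2 fold change -0.58, SE 0.083, edgeR adjusted p = 3.56e-06).

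Aggregates given 50 µg/ml trastuzumab had lower levels of most of the 42 genes. In treated against untreated aggregates 0 were higher and 29 lower, where 18.8% of all tested genes were higher and 17.9% lower (36.7% in either direction). The median log2 fold change was -0.24, and 3 genes passed against a change of 25%. FBL fell most, with 107, 112 and 107 CPM in treated and 159.6, 176 and 181 CPM in untreated aggregates (log2 fold change -0.66, SE 0.058, edgeR adjusted p = 5.69e-11). POLR1C had 30.8, 28.4 and 31.5 CPM in treated and 41.1, 44.6 and 42.6 CPM in untreated aggregates (log2 fold change -0.50, SE 0.069, edgeR adjusted p = 4.97e-07). MYC had 191, 197 and 213 CPM in treated and 276, 262 and 291 CPM in untreated aggregates (log2 fold change -0.46, SE 0.054, edgeR adjusted p = 2.13e-08). In these 3 genes every treated library lay below every untreated one, as it did in 33 of the 42, where 22.8% of all tested genes showed that order.

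Every role had genes that fell. Of the RNA polymerase I genes 4 of 7 fell, among them RRN3 (-0.38) and POLR1E (-0.37), while UBTF (0.062) and POLR1A (0.017) did not pass. All 4 nucleolar chaperone and helicase genes fell, with log2 fold changes of -0.19 to -0.23. Large subunit factors fell in 9 of 11 genes, with NOP2 having 80.4, 82.0 and 83.0 CPM in treated and 115, 109 and 106 CPM in untreated aggregates (log2 fold change -0.43, SE 0.054, edgeR adjusted p = 1.09e-07). Small subunit factors fell in 6 of 9 genes, including UTP4 (-0.39) and RRP9 (-0.42). CAD fell (log2 fold change -0.36, SE 0.050, edgeR adjusted p = 4.9e-07), whereas ODC1 had 257, 251 and 244 CPM in treated and 248, 260.4 and 299 CPM in untreated aggregates and did not pass (-0.10). The box C/D scaffolds NOP56 (-0.055) and NOP58 (-0.064) did not pass, although FBL, which works with both, led the list.

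Of the 121 other pathway genes 3 rose and 65 fell in treated aggregates. Polyamine and nucleotide synthesis fell in 13 of 18 genes and small subunit assembly in 21 of 36. PRPS2, the called gene with the largest fall, had 0.215, 0.550 and 0.256 CPM in treated and 1.41, 1.33 and 1.01 CPM in untreated aggregates (log2 fold change -1.88, SE 0.42, edgeR adjusted p = 0.00062), and the largest called rise was of the polymerase I promoter factor TAF1C (0.34). The set of the libraries and the 24 h of extra culture cannot be told apart from the dose here. The calls of MAX, NOP10, NPM1, RRP1 and WDR12 were each lost without 1 library, which was treated replicate 2 for MAX, treated replicate 3 for RRP1 and untreated replicate 3 for the other 3 genes, with edgeR adjusted p of 0.0537 to 0.093.

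Primed and treated aggregates against untreated aggregates used the same control libraries as the previous comparison, so their values are not independent of it. Among the 42 genes 0 were higher and 20 lower, where 17.6% of all tested genes were higher and 17.9% lower (35.5% in either direction). ODC1, unlike in treated aggregates, was among them, with 162, 175 and 169 CPM in primed and treated aggregates and 248, 260.4 and 299 CPM in untreated aggregates (log2 fold change -0.67, SE 0.075, edgeR adjusted p = 9.27e-08). FBL had 125, 116 and 117 CPM in primed and treated aggregates (log2 fold change -0.53, SE 0.057, edgeR adjusted p = 6.44e-09), and MYC had 211, 219.9 and 217 CPM (log2 fold change -0.36, SE 0.054, edgeR adjusted p = 2.77e-06). All 3 genes lay below every untreated aggregate library. The calls of NCL, NOP10, NOP56, PES1 and RRP1 were lost on leaving out 1 library, with edgeR adjusted p up to 0.371. For NCL the library was untreated replicate 3, for NOP10 that one or primed and treated replicate 1 or 2, and for PES1 untreated replicate 3 or primed and treated replicate 3. For NOP56 it was replicate 1 of either group, untreated replicate 2 or primed and treated replicate 3, and for RRP1 untreated replicate 2 or primed and treated replicate 2 or 3. Among the 121 other genes 8 rose and 47 fell, the called extremes being MYCN (1.31) and PRPS2 (-2.78).

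Priming before the dose was compared with the dose alone. In primed and treated against treated aggregates 4 of the 42 (9.52%) were higher and 1 (2.38%) lower. Of all tested genes 3.18% were higher and 4.8% lower (7.98% in either direction). ODC1 was the gene that fell, with 162, 175 and 169 CPM in primed and treated aggregates and 257, 251 and 244 CPM in treated aggregates (log2 fold change -0.57, SE 0.074, edgeR adjusted p = 1.13e-05). It was also the gene of the 42 that passed against a change of 25%, where the count was 1. GNL3 had 295, 303 and 306 CPM in primed and treated aggregates and 259, 251 and 265 CPM in treated aggregates (log2 fold change 0.22, SE 0.047, edgeR adjusted p = 0.00197). NPM1 had 668, 669 and 623 CPM in primed and treated aggregates and 574, 555 and 527 CPM in treated aggregates (log2 fold change 0.24, SE 0.055, edgeR adjusted p = 0.00331). These 3 genes were separated library by library and held without each single library.

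WDR74 (0.22), a large subunit factor, and UTP14A (0.24), a processome protein, passed but rested on single libraries. WDR74 was lost without treated replicate 1 or 2 or primed and treated replicate 3, with edgeR adjusted p up to 0.0762, and UTP14A without treated replicate 2 or 3 or primed and treated replicate 1 or 2, with edgeR adjusted p up to 0.126. Without treated replicate 2 the count was 3. MYC did not pass, with 211, 219.9 and 217 CPM in primed and treated aggregates and 191, 197 and 213 CPM in treated aggregates (log2 fold change 0.11, SE 0.054, edgeR adjusted p = 0.244). Among the 121 other genes 8 rose and 1 fell. The largest rise was of the processome protein UTP25 (log2 fold change 0.37, SE 0.056, edgeR adjusted p = 2.84e-05), and the gene that fell was CTPS1 (log2 fold change -0.33, SE 0.083, edgeR adjusted p = 0.00929).

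The second dose in primed cells was compared with priming alone. In primed and treated against primed aggregates 2 of the 42 genes were higher and 13 lower, where 14.9% of all tested genes were higher and 14.8% lower (29.8% in either direction). With total counts in place of TMM factors, the split was 4 higher and 10 lower. That scaling moved the log2 values of all genes by about 0.0396, and the share of all tested genes under it was not taken. FBL had 125, 116 and 117 CPM in primed and treated aggregates and 158, 165 and 162 CPM in primed aggregates (log2 fold change -0.44, SE 0.057, edgeR adjusted p = 4.05e-07). NOB1 had 64.9, 64.1 and 62.5 CPM in primed and treated and 84.5, 85.9 and 82.7 CPM in primed aggregates (log2 fold change -0.40, SE 0.064, edgeR adjusted p = 1.02e-05). POLR1E had 31.9, 36.3 and 30.2 CPM in primed and treated and 41.1, 43.5 and 43.0 CPM in primed aggregates (log2 fold change -0.38, SE 0.077, edgeR adjusted p = 0.000307). None of these groups overlapped. MYC did not pass (log2 fold change -0.11, SE 0.054, edgeR adjusted p = 0.133), and neither did UBTF (-0.011). The count against a change of 25% was 0.

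The 2 genes that rose, GAR1 (0.20) and NOP16 (0.20), lost their calls without primed replicate 2 or 3 or primed and treated replicate 1 or 3, and NOP16 also without primed and treated replicate 2, with edgeR adjusted p up to 0.116 for GAR1 and 0.264 for NOP16. CAD, DKC1, RRN3 and RRP12 also lost theirs on leaving out 1 library. For CAD it was replicate 2 of either group or primed and treated replicate 3, for DKC1 replicate 1 of either group, for RRN3 primed replicate 3, and for RRP12 any of 5 libraries, all but primed replicate 1, with edgeR adjusted p up to 0.171. The set of the libraries cannot be told apart from the dose. Among the 121 other genes 5 rose and 31 fell, with MNT, a MAX partner that represses transcription, at 0.33 and PRPS2 at -3.49.

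Primed and treated aggregates against primed monolayers compare the culture forms within the other set of libraries, with the second dose on the aggregate side. Of the 42 genes 7 were higher and 28 lower, where 31.9% of all tested genes were higher and 32.1% lower (63.9% in either direction). MYC had 211, 219.9 and 217 CPM in primed and treated aggregates and 272, 256 and 243 CPM in primed monolayers (log2 fold change -0.25, SE 0.054, edgeR adjusted p = 0.000116). NOLC1 had 104, 97.4 and 101 CPM in the aggregates and 177, 186 and 189.6 CPM in the monolayers (log2 fold change -0.87, SE 0.051, edgeR adjusted p = 1.25e-16). POLR1A had 76.1, 78.6 and 79.5 CPM in the aggregates and 141, 142 and 134 CPM in the monolayers (log2 fold change -0.83, SE 0.057, edgeR adjusted p = 7.74e-15). The aggregate libraries lay below the monolayer libraries in all 3 genes. EBNA1BP2 (-0.85), BOP1 (-0.84), NOP56 (-0.74) and NHP2 (-0.74) were also among the largest falls.

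Some genes were high in aggregates in both pairs of groups. GNL3 had 295, 303 and 306 CPM in primed and treated aggregates and 182, 177 and 192 CPM in primed monolayers (log2 fold change 0.72, SE 0.048, edgeR adjusted p = 4.76e-15), beside 0.84 for untreated aggregates over untreated monolayers. NOB1 stood at 0.59 and 0.67 in the same order, RRN3 at 0.29 and 0.66, and POLR1E at 0.32 and 0.41. UTP20 was low in aggregates in both, at -0.59 and -0.61, and DDX21 at -0.28 and -0.26. These 2 comparisons share no library. MYC, UBTF, ODC1 and CAD had opposite signs in the pair, and for UBTF the lower value (-0.14) was lost without primed monolayer replicate 2 or 3 or primed and treated replicate 3 (edgeR adjusted p up to 0.109). GAR1, UTP14A and WDR12 also lost their calls without single libraries, with edgeR adjusted p up to 0.186. For GAR1 these were primed monolayer replicate 3 and primed and treated replicates 2 and 3, for UTP14A replicates 1 and 2 of either group, and for WDR12 primed monolayer replicates 2 and 3 and primed and treated replicate 2. Among the 121 other genes 22 rose and 63 fell. MXI1 rose most, with 66.0, 69.5 and 67.0 CPM in primed and treated aggregates and 12.7, 13.5 and 13.8 CPM in primed monolayers (log2 fold change 2.34, SE 0.074, edgeR adjusted p = 4.28e-24).

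**Figure D4:**
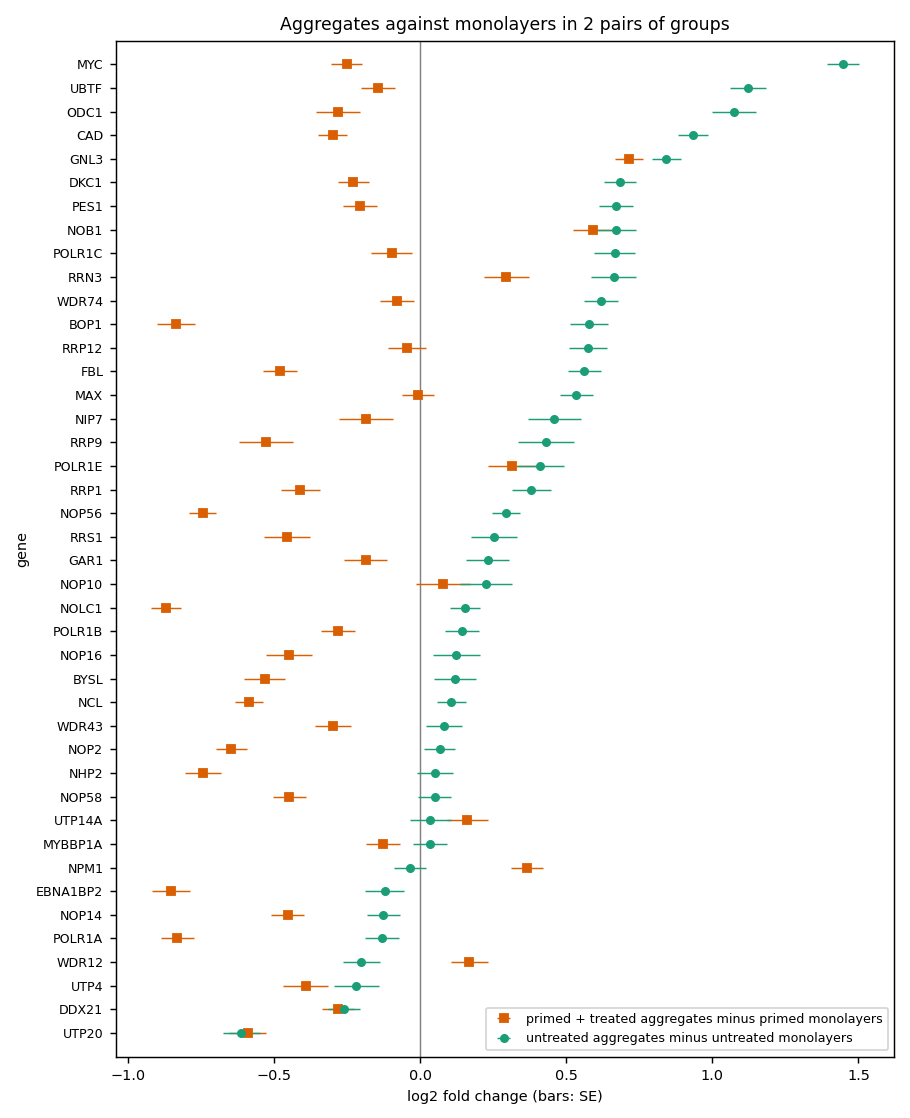
Log2 fold changes with SE bars of the 42 genes, ordered by the values of untreated aggregates over untreated monolayers (circles) and set beside those of primed and treated aggregates over primed monolayers (squares), 3 libraries a group. GNL3, NOB1, RRN3 and POLR1E lie right of 0 in both and UTP20 and DDX21 left of 0 in both, whereas MYC has its square at -0.25 and its circle at 1.45.

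Responses in the 2 culture forms were compared as a difference, primed minus untreated monolayers less primed minus untreated aggregates. Both aggregate groups had 96 h of overlay culture, whereas primed monolayers had 96 h of further culture and untreated monolayers no stated time, so priming and culture time cannot be told apart on the monolayer side. Of the 42 genes 30 had the higher response in monolayers and 5 the lower, where 29.4% of all tested genes were higher and 27.6% lower (57% in either direction), and the median difference was 0.53. The largest difference was of MYC at 1.59 (SE 0.077, edgeR adjusted p = 5.12e-18), followed by ODC1 at 1.53 and BOP1 at 1.35. NPM1 had the most negative difference at -0.60 (SE 0.078, edgeR adjusted p = 4.03e-08), falling in primed monolayers and rising in primed aggregates. Because the primed monolayers belong to the other set of libraries than the remaining 3 groups, the set cannot be told apart from the culture form in this difference.

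Whether priming acted differently in treated and untreated aggregates was tested the same way. Of the 42 genes 6 had a higher response to priming in treated aggregates and 0 a lower one, where 5.05% of all tested genes were higher and 7.42% lower (12.5% in either direction). RRP9 differed most, at 0.64 (SE 0.13, edgeR adjusted p = 0.00118), and MYC by 0.36 (SE 0.076, edgeR adjusted p = 0.00128). For MYC this sets 0.11 in treated aggregates, which did not pass, beside -0.25 in untreated aggregates, which did. ODC1 fell with priming in both, at -0.57 and -0.85, and its difference of 0.28 did not pass (edgeR adjusted p = 0.089). Each response here was measured within 1 set of libraries, but the sets differ. The treated groups belong to the set with kidney transcripts and the other groups to the set with melanocyte transcripts. The set and the 24 h of extra culture therefore cannot be told apart from the dose in this difference. The count was 3 without treated replicate 1, 11 without primed replicate 1 and 10 without untreated replicate 1, and 12 with total counts in place of TMM factors. Total counts moved the log2 values of all genes here by about 0.0201, and the share of all tested genes under them was not taken.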

How the data were processed

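RNA-seq of 21 libraries of AU565 cells was analysed from 1 table of read counts per gene that the authors deposited. The counts are whole numbers, not normalized. The submitters' processing notes name featureCounts, limma and hg38, and aligner, strand setting and versions are not given in the sources used here. The columns of primed aggregates are named as in the labels' treatment protocol, but the titles of those 3 samples leave out the word primed. They were assigned by the protocol and because all other columns match other titles. Of 16553 genes, 174 had no symbol. Total counts were 15005070 to 26921113 per library, and counting error is a limit for genes of few counts.

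Genes were filtered with filterByExpr, which removed 584 genes holding 0.0116% of the counts. Counts were then scaled by TMM and fitted for all 7 groups in 1 model with edgeR 4.0.16 (R 4.3.3, quasi-likelihood, robust, 14 residual degrees of freedom). Calls needed a Benjamini-Hochberg adjusted p under 0.05 over 15969 genes, in 10 comparisons and 2 differences between responses. All tests were two-sided. The common biological coefficient of variation was 5.98%, and replicate pairs differed beyond sampling noise (chi-squared per degree of freedom 2.4 to 10.7, genes of at least 20 counts). Replicates with the same number mostly did not vary together: of 30 pairs of libraries 2 had a correlation over 0.1 (range -0.089 to 0.184), so no block was used. Both were in untreated aggregates against untreated monolayers, with 0.069, 0.139 and 0.184 for replicates 1, 2 and 3. In these groups MYH7 exceeded 1 CPM in replicates 1 and 2 and not in replicate 3.

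The genes and gene lists were chosen with earlier results of these data known. All 42 genes were described by role, with those given per library chosen after their values were seen, and of the 121 other pathway genes those with the largest called rise and fall in each comparison. Alternatives were DESeq2 1.42.0, limma 3.58.1 (voom), other scalings, no filter, only the groups compared, a replicate block, a test against a change of 25%, and leaving out libraries. The fit was tested on simulated data, where it did not recover every changed gene. A gene that did not pass is therefore not shown to be unchanged. Promoters came from RefSeq (GRCh38.p14), and 7 of the 42 genes had no entry used here.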

Additional observations from a re-analysis of the deposited data

Results flagged for a closer look

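The response of primed over untreated cells, on the log2 scale, differed between monolayers and aggregates for 35 of the 42 genes by the edgeR test of the difference itself (adjusted p under 0.05), with 30 higher in monolayers, where 29.4% of all tested genes were. Of MYC, its partner and the growth enzymes, 4 of 4 had the higher response in monolayers, MYC by 1.59, MAX by 0.53, ODC1 by 1.53 and CAD by 1.09. Of the RNA polymerase I genes, 5 of 7 had the higher response in monolayers, POLR1A by 0.59, POLR1B by 0.30, POLR1C by 0.51, UBTF by 1.26 and MYBBP1A by 0.21, and RRN3 did not pass. Of the box C/D snoRNP genes, 3 of 3 had the higher response in monolayers, FBL by 0.60, NOP56 by 1.04 and NOP58 by 0.39. Of the box H/ACA snoRNP genes, 3 of 4 had the higher response in monolayers, DKC1 by 0.74, NHP2 by 0.88 and GAR1 by 0.62, and NOP10 did not pass. Of the nucleolar chaperone and helicase genes, 2 of 4 had the higher response in monolayers, NCL by 0.58 and NOLC1 by 0.81, and DDX21 did not pass. Of the small subunit factors, 5 of 9 had the higher response in monolayers, NOP14 by 0.33, WDR43 by 0.35, RRP9 by 1.18, RRP12 by 0.44 and BYSL by 0.54, and UTP4 and UTP20 did not pass. Of the large subunit factors, 8 of 11 had the higher response in monolayers, NOP2 by 0.47, NOP16 by 0.78, BOP1 by 1.35, PES1 by 0.82, WDR74 by 0.71, RRP1 by 0.65, RRS1 by 0.61 and EBNA1BP2 by 0.78, and GNL3 and NIP7 did not pass. A lower response in monolayers was found for POLR1E (-0.28), NPM1 (-0.60), UTP14A (-0.28), NOB1 (-0.32) and WDR12 (-0.41). The calls of MYBBP1A, POLR1E and UTP14A did not hold without each single library, with edgeR adjusted p up to 0.126. Those libraries were primed aggregate replicates 1 and 3, primed monolayer replicate 2 and untreated monolayer replicates 1 and 2 for MYBBP1A. For UTP14A they were primed aggregate replicate 3, untreated aggregate replicates 1 and 2 and untreated monolayer replicate 3, and for POLR1E 7 of the 12 libraries. The primed monolayers belong to the set of libraries with kidney transcripts and the other 3 groups to the set with melanocyte transcripts, so set and culture form cannot be told apart. Primed monolayers also had 96 h of further culture that the labels do not give for untreated monolayers, while both aggregate groups had 96 h, so culture time and priming cannot be told apart in the monolayer response.

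Priming also had a higher response in treated than in untreated aggregates for 6 genes, by the same test, where 5.05% of all tested genes were higher. The differences were RRP9 by 0.64, NOP10 by 0.38, MYC by 0.36, BOP1 by 0.33, WDR74 by 0.32 and CAD by 0.22. RRP9, MYC and WDR74 held without each single library. BOP1 was lost without treated replicate 1 (edgeR adjusted p = 0.0599), CAD without any of 6 libraries (edgeR adjusted p up to 0.0765) and NOP10 without any of 7 (edgeR adjusted p up to 0.162). The responses in treated and in untreated aggregates come from different sets of libraries. Set and 24 h of extra culture therefore cannot be told apart from the dose in these differences.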

How the results depend on the processing

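Counts of the 42 genes that passed kept within 1.5 times of those reported under DESeq2, limma voom, RLE size factors, no filter and a replicate block. No direction of a called gene reversed under any alternative run. Replicate numbers mostly did not pair the libraries, with small positive correlations in untreated aggregates against untreated monolayers. With the replicate block the counts were 29 for untreated aggregates against untreated monolayers, 33 for primed against untreated monolayers and 29 for treated against untreated aggregates. Against a change of 25% the counts were 16 for untreated aggregates over untreated monolayers, 0 for acutely exposed over untreated monolayers, 19 for primed over untreated monolayers and 22 for primed over acutely exposed monolayers. For aggregates they were 1 for primed over untreated, 3 for treated over untreated, 4 for primed and treated over untreated, 1 for primed and treated over treated, 0 for primed and treated over primed, and 18 for primed and treated aggregates over primed monolayers. For the difference of priming between treated and untreated aggregates it was 0. This test asks for a larger change by construction, and the share of all tested genes that passed it was not taken. Without the 6 MYH7 libraries 1 gene passed for acutely exposed over untreated monolayers and 7 for primed over untreated aggregates. The first compares 1 library with 1 and the second 3 libraries with 1, the lone libraries being assumed to vary like the other groups, so these counts say nothing about MYH7. With only the groups compared, primed over untreated aggregates gave 8, also from fewer samples. Total counts gave 12 for the difference of priming between treated and untreated aggregates. That scaling moved the log2 values of all genes there by about 0.0201, and its part in the count was not tested. Leaving out each library gave 3 to 7 for acutely exposed over untreated monolayers, 7 to 13 for primed over untreated aggregates, 3 to 5 for primed and treated over treated aggregates and 3 to 11 for the difference of priming between treated and untreated aggregates. Depth limits low genes such as PRPS2, MYCN and MYCL, whose fold changes rest on few counts.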

Other observations

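Several of the 42 genes carry small nucleolar RNAs in their introns, and some of these were in the count table at low levels. Levels of these RNAs are CPM of total counts without TMM factors, unlike those of the 42 genes. SNORD110, inside NOP56, had its highest levels in primed monolayers (2.80 to 3.32 CPM), against 1.78 to 2.18 CPM in untreated monolayers. That was the order of its host in this pair of groups. In untreated aggregates SNORD110 had 0.869 to 2.42 CPM and overlapped untreated monolayers, whereas NOP56 passed as higher there. SNORD19, inside GNL3, had 1.12 to 1.68 CPM in untreated aggregates and 0.116 to 0.711 CPM in untreated monolayers, also in the order of its host. SNORD19B, in the same host, had 0.409 to 0.886 CPM in untreated aggregates and 0.379 to 0.814 CPM in untreated monolayers, with overlapping groups. SNORD69, also in GNL3, overlapped in the same groups, with 0.406 to 0.590 CPM and 0.324 to 0.465 CPM. SNORA75, inside NCL, had 0 to 0.626 CPM in primed and 0 to 0.237 CPM in untreated monolayers, although NCL rose there. SNORA51, inside NOP56, had 0.333 to 0.626 CPM in primed and 0.0474 to 0.174 CPM in untreated monolayers, from 21 and 8 counts. Reads of a host intron and of the small RNA cannot be told apart in these counts, and the levels were not tested.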
